A study of Drosophila melanogaster with 2 samples.

Results

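Binding of the tagged coactivator Taiman was described at 7 genes of the forkhead family, fkh, CHES-1-like, jumu, bin, croc, slp1 and slp2, out of 13945 protein-coding genes on the 6 main chromosome arms of Drosophila melanogaster. The genes were chosen by values measured in these data, a strong region at fkh and closely spaced regions at CHES-1-like, so their values are a description and no test was made on them. Chromatin immunoprecipitation and sequencing (ChIP-seq) with an antibody to GFP was carried out on whole third-instar larvae at the wandering stage, males and females pooled, from a transgenic line that stably expresses tai with GFP at its C terminus. The age in hours is not known, the chromatin was sheared by sonication, and the series holds 1 group of 2 biological replicates, numbered 1 and 3, with no untagged, untreated or second-stage group to set against it. Both replicates were called by the authors against the same control, so a region seen in both is not independent of that control. In whole larvae, the share of cells bound and the strength of binding in each cell cannot be told apart.

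Forkhead factors bind DNA through a winged-helix domain, and several act early at closed chromatin in the tissues they specify. fkh, the founding gene of the family, is needed to form the salivary gland and, later, for glue protein gene expression there, and it is switched off in the gland by ecdysone before metamorphosis. CHES-1-like and jumu are related members that act together in heart progenitors, bin acts in the visceral mesoderm, croc in head development, and slp1 and slp2 are paired genes of segmentation and of the neural temporal series. Taiman, the product of tai, has bHLH and PAS domains and is a coactivator of the ecdysone receptor. It also acts with the juvenile hormone receptors and with Yorkie.

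Each gene was read in a window of its annotated span plus 5 kb on each side, and a region counted where its summit lay in that window. The regions came from 4 deposited lists on the dm6 build of the genome. The shortest, which the authors filtered by irreproducible discovery rate (IDR), held 2567 regions on the arms, and the longer lists held 29974 for the pooled replicates, 29973 for replicate 1 and 29976 for replicate 3. The longer lists include background regions by the authors' own description. Signal is the value the authors gave each region over the control, in a unit that no source used here states, and rank 1 is the highest signal on the arms of a list. The entries of the IDR list were the regions with the highest pooled signal, down to 65.2, with a median of 89.1. The lists give no read depth, so the depth is unknown and no counting interval could be set on a signal.

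An IDR summit lay in the window of 3 of the 7 forkhead genes, which were fkh with 1, CHES-1-like with 8 and jumu with 2. Over all protein-coding genes 18.5% had one. bin, croc, slp1 and slp2 had none. The same 3 genes held a summit among the strongest 2567 regions of replicate 1, where 21.1% of all genes did, and among the strongest 2567 of replicate 3, where 19.3% did. Since fkh and CHES-1-like were chosen on these regions, nothing is read from the share of 3 in 7.

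The sequences at the summits of fkh and CHES-1-like are shown because these regions were among those of highest signal in the family, and the pair at jumu because both lie side by side in 1 intron. Each is the reference sequence of RefSeq for the Release 6 assembly, which has the arms of dm6, from 100 bp before to 100 bp after the IDR summit. Capitals mark the forkhead motif (TGTTTAC or TGTTTGC, or the reverse complement of either) and the GAGA factor motif GAGAG, the only motifs of those searched that lie in these windows. The CHES-1-like summit at 7703166, which ranks above the one at 7707038, is left out because it lies inside a transposable element.
fkh, chr3R:28585412-28585612, plus strand: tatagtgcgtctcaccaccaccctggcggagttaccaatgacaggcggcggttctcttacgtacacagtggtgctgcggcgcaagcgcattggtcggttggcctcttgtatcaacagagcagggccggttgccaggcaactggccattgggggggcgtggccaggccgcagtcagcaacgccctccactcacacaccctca
CHES-1-like, chrX:7698342-7698542, plus strand: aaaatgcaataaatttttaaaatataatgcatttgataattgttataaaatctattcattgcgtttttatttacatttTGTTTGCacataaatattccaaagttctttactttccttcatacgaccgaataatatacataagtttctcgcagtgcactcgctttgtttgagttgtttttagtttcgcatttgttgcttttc
CHES-1-like, chrX:7696908-7697108, plus strand: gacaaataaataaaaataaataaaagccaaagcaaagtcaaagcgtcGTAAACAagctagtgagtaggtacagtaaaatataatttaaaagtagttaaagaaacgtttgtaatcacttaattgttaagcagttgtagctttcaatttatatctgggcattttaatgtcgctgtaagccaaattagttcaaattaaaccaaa
CHES-1-like, chrX:7706938-7707138, plus strand: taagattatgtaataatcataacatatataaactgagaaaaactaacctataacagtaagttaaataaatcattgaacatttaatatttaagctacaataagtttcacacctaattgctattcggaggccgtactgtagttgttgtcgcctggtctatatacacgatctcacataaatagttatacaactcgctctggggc
jumu, chr3R:10351124-10351324, plus strand: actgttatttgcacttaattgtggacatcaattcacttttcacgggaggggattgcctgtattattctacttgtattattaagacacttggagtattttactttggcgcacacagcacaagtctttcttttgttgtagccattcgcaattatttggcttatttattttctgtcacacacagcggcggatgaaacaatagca
jumu, chr3R:10351404-10351604, plus strand: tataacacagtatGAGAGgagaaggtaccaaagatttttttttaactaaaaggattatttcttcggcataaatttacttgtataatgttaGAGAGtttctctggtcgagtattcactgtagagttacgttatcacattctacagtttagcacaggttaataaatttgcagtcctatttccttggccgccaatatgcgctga

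fkh (FBgn0000659, 3R:28580976-28585264, minus strand) had a single IDR region, at 3R:28585388-28585617. Its summit at 28585512 lay 248 bp upstream of the outer of its 2 annotated transcription start sites (TSSs), outside any protein-coding gene. The signal was 471 in the pooled list, at rank 31, and 285 in replicate 1, at rank 35, and 195 in replicate 3, at rank 32. The replicate summits lay 5 bp and 10 bp from the IDR summit, in replicates 1 and 3. Both replicates thus placed the region at nearly the same rank and base. Among all protein-coding genes, 77 had an IDR region of the same or higher signal in their window, fkh included.

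The fkh window otherwise held only regions of much lower signal. Replicate 3 had no other region in it, and the further regions of the pooled list had signals of 39.4, at 1451 bp upstream, and 26.1, at 2003 bp upstream. Replicate 1 listed 4 more, with signals of 22.5 to 27.5, from 1453 to 2961 bp upstream. No list had a summit inside the gene or within 5 kb of its far end. The nearest annotated neighbour of the IDR summit on the other side is lncRNA:CR43126, a noncoding gene on the plus strand that starts at 28586048. The IDR region thus lies between 2 start sites that face away from each other. The summits of the further pooled and replicate 1 regions lay inside this noncoding gene, nearer its TSS than that of fkh.

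The fkh summit also lay at the upper end of the list in base composition, which the choice of genes did not use. Its 201 bp were 62.2% G and C, the highest value among all 2567 IDR summits, of which the next highest had 61.7%. The median over the IDR summits was 34.8%, with quartiles of 31.3% and 39.8%. Of 27407 lower-ranked pooled summits 4 were as high. The windows of CHES-1-like had 25.9% to 39.8%, and those of jumu 37.8% and 34.8%. At 230 bp the fkh region was also narrower than the usual width of 404 bp, which 2195 of the 2567 IDR regions had, and 266 IDR regions were as narrow or narrower. CHES-1-like also had narrow regions, of 174, 247 and 250 bp, while its other regions and the jumu pair had the usual width. Base composition can affect recovery in sequencing libraries, and its part in the fkh signal was not tested.

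**Figure D1:**
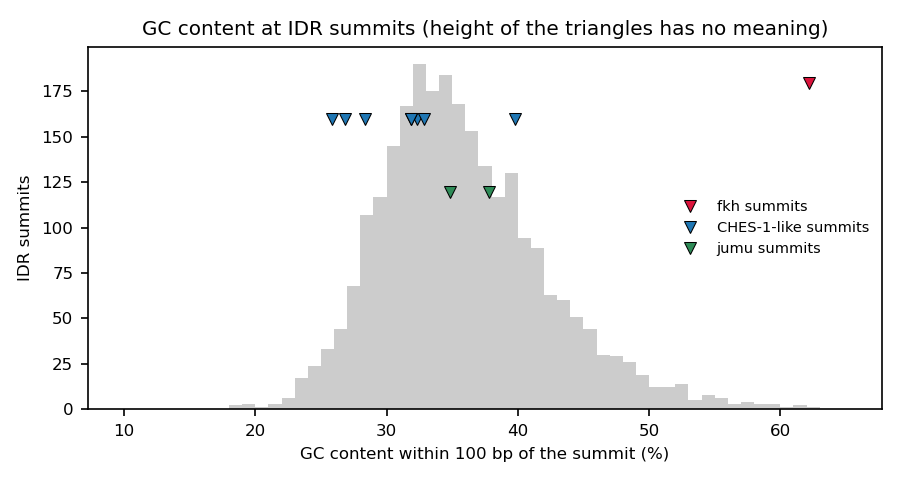
Histogram of the G and C content of the 201 bp around each IDR summit on the arms, as the number of summits per 1% bin, with triangles at the values of the forkhead genes. The fkh summit lies at the right end at 62.2%, while the 8 CHES-1-like summits lie from 25.9% to 39.8% and those of jumu at 37.8% and 34.8%.

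CHES-1-like (FBgn0029504, X:7682338-7709385, minus strand, 4 TSSs) carried a row of 8 IDR regions. They ran over 18097 bp, from 1606 bp upstream of the outermost TSS into the gene. The gaps between neighbouring summits were 1384 to 4724 bp, with a median of 2061 bp. The first 10556 bp of the gene counted from its 3′ end held no IDR summit. Of the 8 summits 6 lay in introns, 1 in a 5′ UTR and 1 outside the gene.

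The summit of highest signal, at 7698442, lay in an intron 1738 bp upstream of the TSS at 7696704. Its signal was 195 in the pooled list (rank 260), 136 in replicate 1 (rank 236) and 59.3 in replicate 3 (rank 531). The summit at 7697008 lay nearer that TSS, 304 bp upstream of it. Its signal was 174 in the pooled list (rank 328), 77.9 in replicate 1 (rank 790) and 92.5 in replicate 3 (rank 179). The order of these neighbours therefore differed between the replicates, with the outer one ahead in replicate 1 and the inner one ahead in replicate 3.

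The summit at 7707038 had a signal of 156 in the pooled list (rank 417), 121 in replicate 1 (rank 307) and 40.4 in replicate 3 (rank 1326). It lay 2075 bp upstream of the nearest CHES-1-like TSS but only 737 bp from the start of lncRNA:CR43287, a noncoding gene within the intron. The summit at 7703166 had a signal of 166 in the pooled list (rank 363), 94.9 in replicate 1 (rank 522) and 75.3 in replicate 3 (rank 310). It lay inside jockey{}80, an annotated transposable element at X:7702962-7703340, and all 201 bases around it are masked as repeat in the reference. Summits inside an annotated transposable element made up 0.273% of the IDR list, 7 of 2567. Reads from other copies of such an element can be placed at this copy, their part in the signal was not tested, and the authors' handling of reads with several matches is not stated in any source used here.

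The other 4 summits were weaker. The one at 7692894, 2024 bp downstream of the innermost TSS, had a signal of 105 (rank 922), with rank 1268 in replicate 1 and 1059 in replicate 3. The one at 7709099, in the 5′ UTR 286 bp downstream of the outermost TSS, had 88.4 (rank 1299), with ranks 1595 and 1953 in replicates 1 and 3. The one at 7710991, outside the gene, had 78.8 (rank 1635). The strongest regions overlapping it ranked 1671 in replicate 1 and 2503 in replicate 3, with summits 72 and 183 bp away. Replicate 3 had a nearer summit at 7711026, with rank 6202.

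The replicates were furthest apart at the eighth, 7705654, 691 bp upstream of the TSS at 7704963. Its signal was 86.1 in the pooled list (rank 1377). The strongest region overlapping it had 80.1 in replicate 1 (rank 742) and 16.9 in replicate 3 (rank 19279). Their summits lay 184 and 99 bp from it. Replicate 1 had a nearer summit at 7705692, with a signal of 72.8 (rank 882). The region at 7705654 was in the IDR list with a rank in replicate 3 that is far below the IDR regions around it. Just outside the IDR list lay 7700477, with a signal of 63.8 and rank 2706 in the pooled list.

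**Figure D2:**
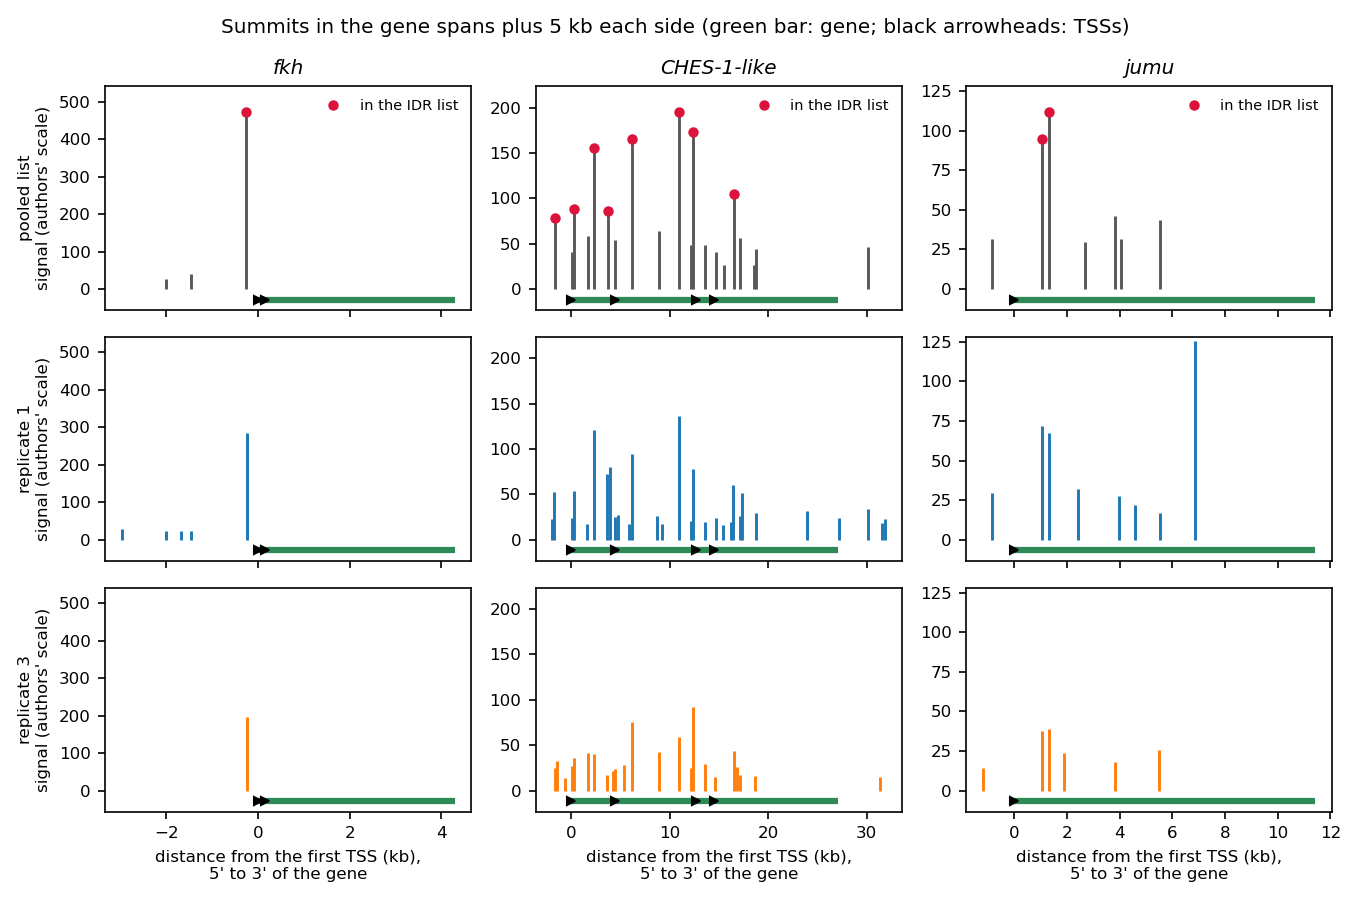
Signal (authors' scale, vertical axis, with 1 scale per gene) of every summit of any rank in the windows of fkh, CHES-1-like and jumu, against distance in kb from the first TSS in the direction of transcription, in the pooled list (top), replicate 1 (middle) and replicate 3 (bottom). Red dots mark the 1, 8 and 2 IDR summits, the green bar is the gene and arrowheads are its TSSs: fkh has 1 tall summit before its start, CHES-1-like a row of summits over its 5′ part, and jumu a pair after its start plus a summit of 126 in replicate 1 alone.

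Per length, CHES-1-like had 2.16 IDR summits per 10 kb of window, jumu 0.933 and fkh 0.700, against 0.192 over the arms as a whole. Among protein-coding genes with an IDR summit in the window the median was 0.863. fkh lay below that median, and jumu, with its overlapping pair, just above it. Of all protein-coding genes 197 were as dense as CHES-1-like or denser, itself included, and 25 had as many summits or more. Windows of neighbouring genes share summits, so these counts are not of separate loci. At any rank, CHES-1-like had 20 summits in the pooled list, or 5.40 per 10 kb. It had 30 in replicate 1, or 8.10 per 10 kb, and 23 in replicate 3, or 6.21 per 10 kb. The 90th percentile of all genes was 5.41, 5.64 and 4.98 per 10 kb in these lists, so the pooled value lay just under it and both replicate values above it.

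jumu (FBgn0015396, 3R:10350182-10361612, plus strand, 1 TSS) had a pair of IDR regions in an intron just after its start. The summit at 10351504, 1322 bp downstream of the TSS, had a signal of 112 (rank 809), and that at 10351224, 1042 bp downstream, had 94.5 (rank 1139). The summits lay 280 bp apart and their regions overlapped by 124 bp, so counted as merged regions jumu had 1. Both replicates split the region the same way. Replicate 1 had summits at 10351221 (signal 71.6, rank 909) and 10351509 (signal 67.7, rank 1004), and replicate 3 had them at 10351219 (signal 37.6, rank 1617) and 10351494 (signal 38.7, rank 1503). Which of the pair was higher differed between the replicates. Upstream of jumu, each list had 1 summit nearer the TSS of CG31406 than that of jumu, with a signal of 31.5 in the pooled list, 29.2 in replicate 1 and 14.0 in replicate 3.

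The highest signal that replicate 1 had at jumu was elsewhere. A summit at 10357049, in an intron 6867 bp downstream of the TSS, had a signal of 126 and rank 282 there. No region of replicate 3 or of the pooled list overlapped it, and their nearest summits were 1366 bp and 1357 bp away. Of the strongest 2567 regions of replicate 1, 18.4% overlapped no region of replicate 3 at any rank and 12.2% overlapped none of the pooled list. The region at 10357049 is thus a value of 1 library.

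Of the 11 IDR summits at fkh, CHES-1-like and jumu, 10 overlapped a region among the strongest 2567 of both replicates, and the exception was 7705654. Over the whole IDR list 50.4% did, 1293 of 2567. The 11 ranked 31 to 1635, so the whole list includes regions of lower rank than any of them, and the shares are not alike. The jumu pair was counted separately though both overlap the same replicate regions. The IDR step uses both replicates, and the genes were chosen for strong regions, so the count is a description only.

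**Figure D3:**
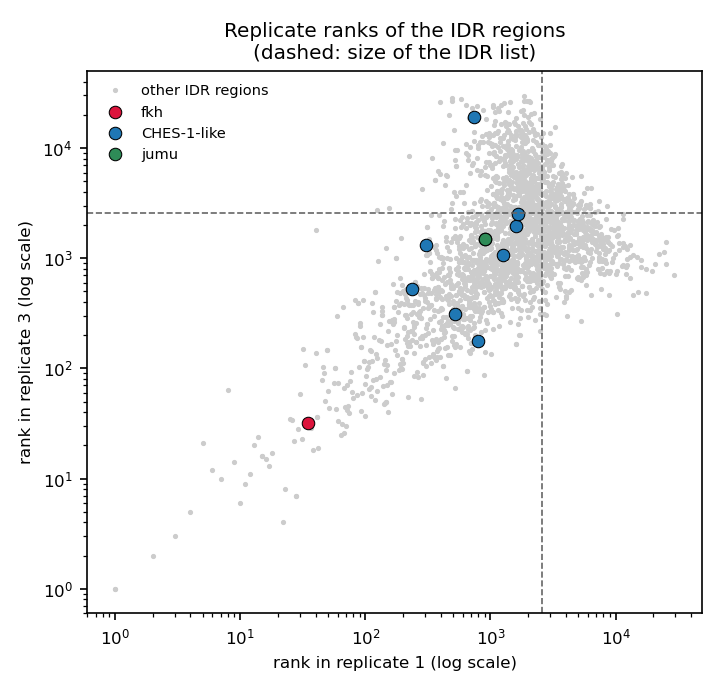
Rank of the strongest overlapping region in replicate 1 (horizontal, log scale) and in replicate 3 (vertical, log scale) for each IDR region that both replicates overlap, with 1 the highest signal and dashed lines at 2567. fkh lies near the low end of both axes at 35 and 32, the jumu pair shares 1 point because its regions overlap the same replicate regions, and 1 CHES-1-like point lies above the horizontal line at 19279.

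bin (FBgn0045759, 3L:6990622-6994447, plus strand), which encodes a factor of the visceral mesoderm, had summits of lower rank only. Its highest pooled summit, at 6998417, had a signal of 44.4 and rank 7380, and lay 426 bp from the TSS of the next gene, Mp. Both replicates had a region there, at rank 10217 in replicate 1 and 24729 in replicate 3, with summits 64 and 22 bp away. On the other side, a pooled summit with a signal of 25.2 lay nearer a TSS of CG32388 than that of bin. In replicate 1 the highest was at 6989213, 1409 bp upstream of bin, with a signal of 40.7 and rank 2940, just past the strongest 2567. Replicate 3 had no region overlapping that one, and its highest at bin had a signal of 16.7 and rank 19673. The highest region at bin thus differed between the replicates.

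croc (FBgn0014143, 3L:21474133-21476479, minus strand) was covered by 1 replicate alone. Replicate 3 had 4 summits, all 2538 to 4829 bp upstream of the TSS, of which the highest had a signal of 27.6 and rank 4307. Replicate 1 and the pooled list had no region in the window.

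slp1 (FBgn0003430, 2L:3825675-3827099) and slp2 (FBgn0004567, 2L:3836840-3839185) lie in the same direction with 9740 bp between them, and their windows share 260 bp. Their highest pooled summit was the same one, at 3831935, close to the middle of the gap, 4836 bp past the end of slp1 and 4905 bp before the start of slp2. Its signal was 47.9 in the pooled list (rank 5948), 24.1 in replicate 1 (rank 11613) and 18.2 in replicate 3 (rank 15946). The replicate summits lay 1 bp apart although both ranks were low. Replicate 3 also had a summit of 25.6 (rank 5599) 2355 bp downstream of the slp1 TSS and one of 23.9 (rank 7076) 1430 bp upstream of slp2. Neither had a counterpart among the replicate 1 summits of these windows within 100 bp.

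**Figure D4:**
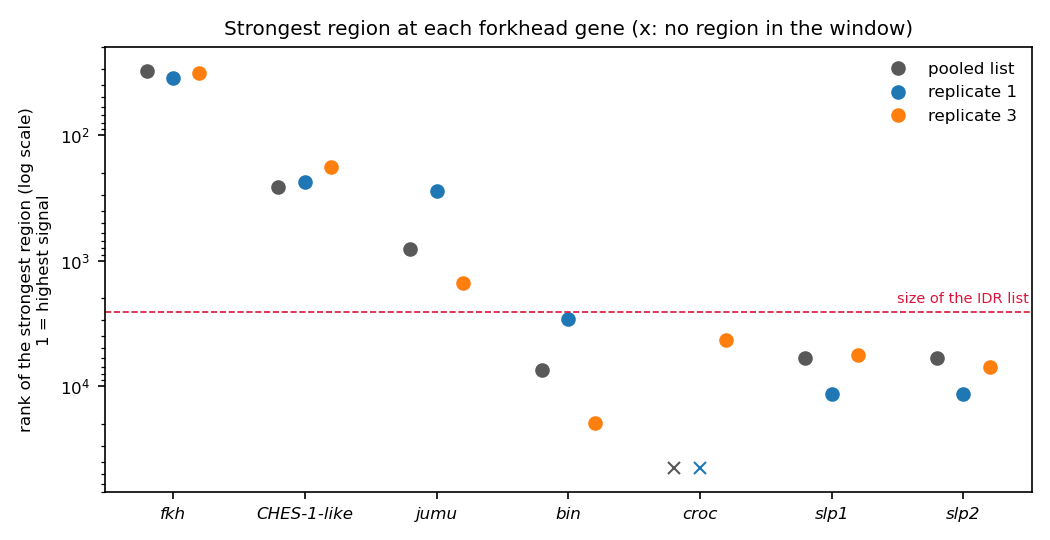
Rank of the highest region in the window of each forkhead gene (log scale, 1 at the top) in the pooled list, replicate 1 and replicate 3, with a dashed line at 2567 and a cross where a list has no region. fkh, CHES-1-like and jumu lie above the line in all 3 lists, and bin, croc, slp1 and slp2 below it in each list that has a region.

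At any rank, 6 of the 7 genes had a summit in the pooled list, where 50.5% of all protein-coding genes had one. In replicate 1 the count was 6, where 55.7% of all genes had one, and in replicate 3 it was 7, where 54.3% had one. The gene without a summit was croc in both cases. The median over the 7 genes was 3.24 summits per 10 kb in the pooled list, against 0.431 over all protein-coding genes. It was 3.50 against 0.861 in replicate 1 and 3.24 against 0.838 in replicate 3. Among protein-coding genes with a summit in the window, the median was 2.80 in the pooled list and 2.79 in each replicate. The genes were chosen partly for closely spaced regions, so nothing is read from these differences. In the IDR list the medians over the 7 genes and over all protein-coding genes were 0.

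Summits of any rank were matched between the replicates only in part. Of the replicate 1 summits, 16 of 30 at CHES-1-like had a replicate 3 summit within 100 bp, as had 3 of 8 at jumu, 1 of 5 at fkh, 1 of 5 at bin, 1 of 2 at slp1 and 1 of 3 at slp2. Over all of replicate 1 the share was 30.3%, and over all of replicate 3, counted the other way, it was 30.3%. At slp1 and slp2 the shared summit is the same one.

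The rest of the family was read from a list of 12 symbols, of which 10 matched a gene of the annotation and fd68A and fd85E did not. foxo, the forkhead factor that insulin signalling holds out of the nucleus, was the only one of the 10 with an IDR summit, where 18.5% of all protein-coding genes had one. It had one at 14053623, 3322 bp upstream, with a signal of 84.4 (rank 1426), and one at 14062173, in an intron, with a signal of 74.5 (rank 1852). The strongest regions overlapping them ranked 794 and 1727 in replicate 1, against 10769 and 5137 in replicate 3. Neither foxo region thus overlapped one among the strongest 2567 in both replicates. At any rank CHES-1-like had 5.40 pooled summits per 10 kb with a highest signal of 195, against 8.29 per 10 kb, from 34 summits, and 84.4 at foxo.

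FoxK, FoxL1 and fd59A had no region in any list. fd102C, on chromosome 4, had 14 pooled summits, or 7.98 per 10 kb, with the highest at rank 3608 in the pooled list, 2792 in replicate 1 and 1843 in replicate 3. The other genes with pooled summits were fd96Cb with 7, fd96Ca with 5, FoxP with 5, fd3F with 2 and fd19B with 1. Per 10 kb, fd96Cb had 6.31 in the pooled list, 6.31 in replicate 1 and 5.41 in replicate 3. fd96Ca had 4.10, 9.02 and 2.46 in these lists. In the pooled list the median was 3.24 summits per 10 kb over the 7 chosen genes and 2.22 over these 10.

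**Figure D5:**
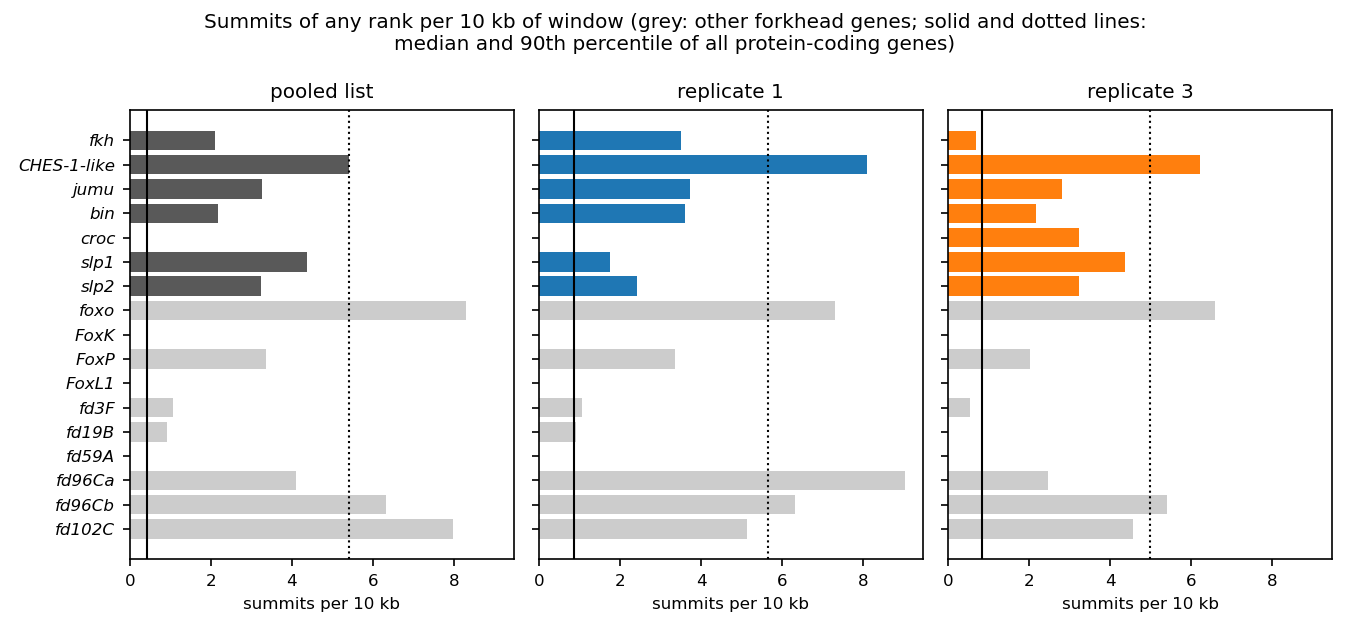
Summits of any rank per 10 kb of window for the 7 chosen forkhead genes (dark or coloured bars) and the 10 others (grey bars) in the pooled list, replicate 1 and replicate 3, with the median (solid line) and the 90th percentile (dotted line) of all protein-coding genes. CHES-1-like reaches 5.40, 8.10 and 6.21 per 10 kb in these lists. foxo and fd96Cb are above the dotted line in each, and fd96Ca reaches 9.02 in replicate 1.

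Genes known to act with the forkhead factors were read from a list of 20, and 4 had an IDR summit in the window, where 18.5% of all protein-coding genes had one, so the share is near that of all genes. Of the salivary gland genes, CrebA, which drives secretory pathway genes there, had 5, of which the highest had a signal of 144 (rank 490) 1902 bp upstream of its TSS. Overlapping regions counted once, CrebA had 3, and 1 of its summits lay nearer a TSS of CG43248. hth, a Hox cofactor gene, had 3 across a long gene, the highest with a signal of 75.0 (rank 1829). sage, sens, Scr and exd had none. Of the heart and mesoderm genes, Mef2, a muscle factor gene, had 3 with a highest signal of 194 (rank 263). tin, needed to specify the heart, had 2, of which the higher had a signal of 148 (rank 458) 289 bp upstream and the other lay nearer a TSS of mod(mdg4). pnr, bap, Doc1, Doc2 and Doc3 had none, and neither had any of the segmentation genes wg, en, hh, eve, prd, odd and run.

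Forkhead motifs lay near a minority of these summits, as over the whole list. TGTTTAC was found on the minus strand at 7697008, starting 53 bp before the summit in plus-strand coordinates, and TGTTTGC on the plus strand at 7698442, starting 22 bp before it. These were 2 of the 11 summits, where 13.3% of IDR summits and 12.6% of lower-ranked pooled summits held either. Both strands were searched, and the count of each motif includes any overlap with another.

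The other motifs searched were those of factors related to Taiman or to open promoters. AGGTCA, the core site of nuclear receptors, was found at 7703166, inside the transposable element, and was held by 3.58% of IDR summits and 4.14% of lower-ranked ones. CACGCG, bound by Taiman with juvenile hormone receptors, was at none of the 11, and was held by 3.74% and 2.47% of IDR and lower-ranked summits. GAGAG was at 7692894 and at 10351504, in the second case starting 10 and 87 bp before the summit, and was held by 24.3% and 17.7%. TATCGATA, the DNA replication-related element, was at none, and was held by 2.45% and 0.748%. The fkh window held none of the 6 motifs.

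By number of IDR summits, summits per 10 kb and highest signal, each as a percentile among the 2581 genes with an IDR summit, the genes most like fkh were Shmt, sau and papi. Each had 1 summit, with signals of 521, 372 and 372. The summit of sau and that of papi are the same one, on 2L at rank 49, which lies in both windows. Those most like CHES-1-like were Tpr2 with 6 summits, ckn with 7 and Diap1 with 6, at 2.30, 2.55 and 2.65 per 10 kb and with highest signals of 196, 188 and 202. The distances were 2.16 to 2.63 percentile points for the genes like fkh and 1.83 to 3.88 for those like CHES-1-like.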

How the data were processed

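ChIP-seq of 2 biological replicates was deposited as narrowPeak lists on dm6. The deposited text records say that the lists of replicate 1, replicate 3 and both together contain peaks as well as background, called against 1 control, and that the IDR list was derived from these 3. The signal of each region is the authors' value, and the deposited signal was used only to rank and describe regions within a list. No source used here names the aligner, the caller or the depth.

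Genes and TSSs came from Ensembl release 115 on BDGP6.54, and bases from the RefSeq genome of that assembly. As a check of coordinates, 30598 of 30748 annotated coding transcripts began with ATG. Coordinates are 1-based. Lists on dm3 and regions off the 6 arms were not used here. Python 3.11.15, numpy 2.4.6, pandas 2.3.3 and matplotlib 3.10.9 were used, and the counting was checked on simulated data. A region overlapped another when they shared 1 bp or more.

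The 7 genes, the other lists and the motifs searched were all chosen with earlier results of these data known. Named are all 7 genes, every gene of the other lists with an IDR summit, genes with a protein-coding TSS nearer to a summit than that of the gene it is counted for, and the 3 genes most like fkh and CHES-1-like. Other genes of the lists are named for completeness, and single regions were singled out after their values were seen. Alternatives were other window sizes, a stricter list, each replicate alone, other rules of overlap and a narrower motif window.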

Additional observations from a re-analysis of the deposited data

How the results depend on the processing

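The 11 IDR summits in the windows of the 7 forkhead genes became 7 among the 1000 IDR regions of highest signal. They numbered 9 to 12 with the gene span alone, plus 1 kb or plus 10 kb, 10 with overlapping regions counted once, and 12 to 14 when 1 replicate was left out and the other's strongest regions were used. At fkh the count was 0 in the gene span alone, since its summit lies upstream. Among the strongest 1000, CHES-1-like had 5 and jumu 1. With the whole IDR list and 10 kb on each side, slp2 had 1. The count in the strongest regions of both replicates was 7 to 10 under the alternatives, most of which also changed the number of summits. It was 7 of 7 among the strongest 1000, 8 of 9 in the gene span alone and 9 of 10 with 1 kb. With 10 kb it was 10 of 12, and with a replicate summit required within 100 bp it was 9 of 11. Other forkhead genes with an IDR summit numbered 2 within 10 kb and 0 among the strongest 1000, and 1 when either replicate was left out, which was foxo without replicate 3 but fd102C without replicate 1. Partner genes numbered 2 in the gene span alone, and 4 to 6 when 1 replicate was left out. Summits with a forkhead motif numbered 1 within 50 bp, a width added after the other alternatives were set. Changes with the window or the stricter list follow from their construction, and the cause of the changes with 1 replicate left out was not tested. No paired analysis was possible because there is 1 group. Depth is unknown, so how far it limits the low-ranked regions could not be assessed.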

Other observations

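Mef2, read as a partner gene of the heart forkhead factors, had its highest region in each replicate where the pooled list had none. The summit was at 9959855 in replicate 1, with a signal of 283 and rank 36, and at 9959900 in replicate 3, with a signal of 211 and rank 27. They lay 997 and 1042 bp upstream of the outermost TSS of Mef2. No pooled region overlapped either, so this region is also missing from the IDR list, which was taken from the pooled regions. The highest IDR region at Mef2 had a signal of 194.

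The same was then counted over the 300 strongest regions of each replicate, a number chosen after the Mef2 values were seen. In replicate 1, 49 of the 300 overlapped no pooled region, of which 40 overlapped no region of replicate 3 either and 8 overlapped one of the 300 strongest of replicate 3. In replicate 3, 12 of the 300 overlapped no pooled region, of which 4 overlapped no region of replicate 1 and 8 overlapped one of its 300 strongest. The summit at jumu that only replicate 1 listed is among the 49.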
